A study of Rattus norvegicus with 2 samples.

Results

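The genes described here were 9 components of the complement system, chosen by symbol from the 25399 genes of the deposited gene list: *C1qa*, *C1qb* and *C1qc*, which encode the chains of C1q; *C1r* and *C1s*, its proteases; *C3*; *Cfb* (factor B); and *C5ar1* and *C3ar1*, receptors of the complement fragments C5a and C3a. Cardiac cells were prepared from the hearts of neonatal Sprague-Dawley rats (1 to 3 days old, males and females pooled), enriched for intrinsic cardiac adrenergic (ICA) cells on a Percoll gradient, and kept in culture. One portion received saline (control) and the other 1 µg/mL LPS (lipopolysaccharide, a bacterial cell wall product) for 2 h, and each gave 1 single-cell library of the 10X Genomics 3′ kind. The series asked how gene expression of these cells differs after LPS. Since each condition was 1 library, no test between them was possible, no p-value is given, and any difference in handling of the libraries is part of each ratio.

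The control library held 11531 cells and 152624585 UMIs (unique molecular identifiers, each counting 1 captured RNA molecule), and the LPS library 12689 cells and 127580475 UMIs. The deposited cell table sorts the cells into 11 clusters, which is not the number that the study's methods give. Clusters 0, 1 and 7 were named fibroblasts, cluster 3 ICA cells and cardiomyocytes, clusters 4 and 5 endothelial cells, cluster 6 macrophages, and clusters 2, 8, 9 and 10 had no name. The names went with the markers: 12 macrophage markers together reached 8259 UMIs per 1000000 in cluster 6 of the control library, against 44.5 to 88.5 in the other clusters. Among the unnamed clusters, cluster 8 had the highest summed level of 7 mesothelial markers and cluster 2 that of 9 mural cell markers. Markers of lymphocytes were at 0 in cluster 6, and those of neutrophils at 11.9 (control) and 23.3 (LPS) per 1000000. A total of 194 cell barcodes occurred in both libraries (1.68% of the control barcodes).

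Complement is a cascade of plasma proteins that marks microbes and debris and recruits leukocytes. C1q binds antibodies, dying cells and some microbial surfaces and activates the proteases C1r and C1s, which start the classical pathway. This pathway and the alternative pathway, which uses factor B, meet at C3. Cleavage of C3 and C5 releases C3a and C5a, which act on C3AR1 and C5AR1 of leukocytes. The liver makes most plasma complement, while tissue macrophages are the main source of C1q and fibroblasts are known to make C1r and C1s.

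In the plot of levels by cluster, these roles fell to different cells. The genes of the C1q chains and of the C5a receptor were held by the macrophages. Those of both proteases were seen in every cluster, and most of their UMIs came from the fibroblasts of cluster 0. In some other clusters the protease levels lay within the range of fibroblast markers. *C3* had its highest level in the endothelial cells of cluster 5 and *Cfb* in cluster 8, but the largest share of their UMIs came from cluster 0. For *C3* this share was 38.0% (control) and 51.7% (LPS), against 25.7% and 18.6% from cluster 5. For *Cfb* it was 49.1% and 60.2%, against 9.48% and 3.65% from cluster 8. Cluster 0 was also the largest cluster, with 90500722 of all 152624585 UMIs in control and 73758241 of 127580475 in LPS. The share of any gene there, the proteases included, reflects this size as well as its level. In the LPS library, the ratio to control was above 1 by its interval for *C3* in 9 clusters and for *C1s* in 8. Of these, clusters 2, 3, 7 and 8 held fewer than 50 UMIs of *C3*, and *C1s* of cluster 3 lay within the range of fibroblast markers. By its interval the ratio was below 1 for *C5ar1*, *C1qa* and *C1qc* in macrophages. The typical macrophage gene was lower too, with a median log2 ratio of -0.304. This value lay inside the intervals of *C1qa* and *C1qc* and outside that of *C5ar1*. All levels below are UMIs of a gene summed over the cells of a cluster, per 1000000 UMIs of that cluster and library (CPM). Intervals are at 95%, exact except for differences of shares, and cover counting error only.

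**Figure D1:**
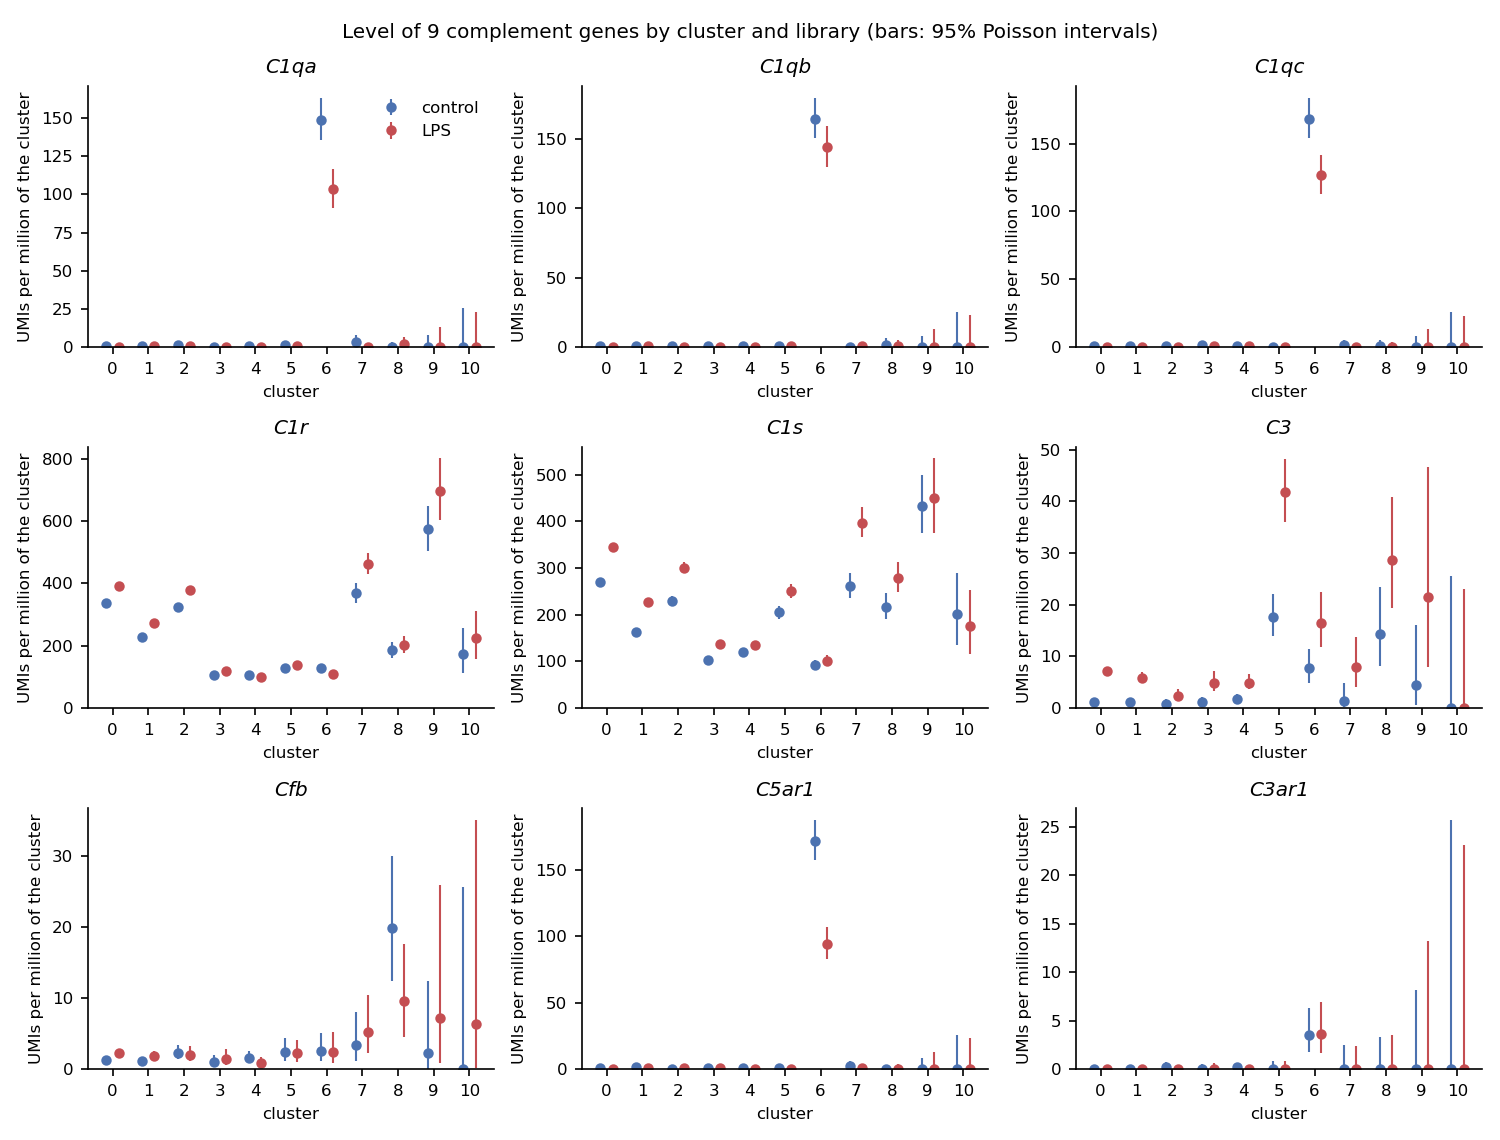
Level of each of the 9 genes (vertical axis, UMIs per 1000000 of the cluster, linear from 0) in the 11 clusters (horizontal axis) of the control and LPS libraries, with 95% Poisson intervals. *C1qa*, *C1qb*, *C1qc* and *C5ar1* stand at 94.1 to 172 in cluster 6 and near 0 elsewhere, *C3* is highest in cluster 5 (17.6 and 41.7), and *C1r* and *C1s* are present in every cluster.

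Promoter sequences of 5 of the 9 genes were found in RefSeq (build GRCr8). The 250 bases before the transcription start are printed for 4 of them: *C3*, which had the largest ratio of LPS to control, *C1qa* and *C1qb*, which lie on either side of *C1qc* on chromosome 5 and share a pattern, and *C1r*, whose level differed little. Capitals mark matches, on either strand, to TTNNGNAA (a C/EBP-type motif) or GGGNNNNNCC (an NF-kB-type motif), families of factors that act in inflammatory responses. No match to TGANTCA (AP-1-type), GAGGAAG (PU.1-type) or GAAANNGAAA (IRF-type) was found in these 4 windows. The fifth window, of *C3ar1*, is not printed; it held an AP-1-type match 72 and an NF-kB-type match 64 bases before the start, and no C/EBP-type match.
C3, chr9:2201340-2201589, minus strand: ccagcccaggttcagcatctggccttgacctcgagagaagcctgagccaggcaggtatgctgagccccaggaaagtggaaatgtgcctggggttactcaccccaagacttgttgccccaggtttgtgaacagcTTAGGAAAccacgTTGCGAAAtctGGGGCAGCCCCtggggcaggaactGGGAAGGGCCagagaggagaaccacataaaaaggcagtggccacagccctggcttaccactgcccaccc
C1qa, chr5:154419934-154420183, minus strand: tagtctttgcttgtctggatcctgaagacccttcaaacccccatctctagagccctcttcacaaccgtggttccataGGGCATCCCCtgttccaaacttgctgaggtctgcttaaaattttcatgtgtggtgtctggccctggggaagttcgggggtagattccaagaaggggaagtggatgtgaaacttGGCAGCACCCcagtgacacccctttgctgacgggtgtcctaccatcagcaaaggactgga
C1qb, chr5:154407828-154408077, minus strand: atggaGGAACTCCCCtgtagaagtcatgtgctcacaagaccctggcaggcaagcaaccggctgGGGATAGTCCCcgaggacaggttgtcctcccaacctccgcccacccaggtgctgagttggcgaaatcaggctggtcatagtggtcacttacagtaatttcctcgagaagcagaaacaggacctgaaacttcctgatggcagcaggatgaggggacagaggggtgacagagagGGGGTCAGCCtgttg
C1r, chr4:159098763-159099012, plus strand: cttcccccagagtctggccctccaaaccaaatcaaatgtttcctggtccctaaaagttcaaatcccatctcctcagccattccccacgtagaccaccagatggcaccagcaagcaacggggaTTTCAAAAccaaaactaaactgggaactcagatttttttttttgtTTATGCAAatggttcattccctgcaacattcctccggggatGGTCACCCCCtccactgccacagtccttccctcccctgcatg
The *C3* window held 2 C/EBP-type matches, at 117 and 104 bases before the start, and 3 NF-kB-type matches, of which 2 overlap. *C1r* held 2 and 1, *C1qa* 0 and 2, and *C1qb* 0 and 4, of which 2 overlap. Such matches were common: 37.2% of 33469 rat promoter windows of this length held the C/EBP-type and 42.3% the NF-kB-type letters. The AP-1-type letters were in 6.34%, the PU.1-type in 10.2% and the IRF-type in 3.41%. A match in a sequence says nothing about binding in these cells.

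C1q is assembled from equal numbers of its 3 chains, and the RefSeq annotation places *C1qa*, *C1qc* and *C1qb* side by side on chromosome 5 with no other protein-coding gene between them. *C1qa* (ENSRNOG00000012807) had 463 UMIs in the 281 control macrophages of cluster 6 and 257 in the 291 LPS macrophages, levels of 149 (135 to 163) and 103 (91.1 to 117) CPM. *C1qb* (ENSRNOG00000012749) had 512 and 358 UMIs, 164 and 144 CPM. *C1qc* (ENSRNOG00000012804) had 524 and 315 UMIs, 168 and 127 CPM. The intervals of the libraries did not overlap for *C1qa* and *C1qc* and overlapped for *C1qb*.

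In macrophages, the LPS level divided by the control level was 0.695 (0.595 to 0.812) for *C1qa*, 0.753 (0.653 to 0.868) for *C1qc* and 0.876 (0.763 to 1.00) for *C1qb*. The typical gene was also lower there: over the 6385 genes with at least 50 UMIs in cluster 6, the median log2 ratio was -0.30. Relative to that median the log2 ratios were -0.22 for *C1qa*, -0.10 for *C1qc* and 0.11 for *C1qb*, so the direction for *C1qb* turned. The median (-0.304) lay inside the counting interval of each chain, for *C1qa* just within its upper end of -0.301. With every macrophage weighed the same, the log2 ratio of *C1qa* lay further below 0 than the reported -0.52, by an amount that differed with the method. The mean of the cells' own CPM gave -0.746, inside the counting interval of -0.750 to -0.301. Random thinning to 3000 UMIs gave -1.11, outside that interval. Both settings weigh the cells alike, but the thinned value comes from a single random draw and carries its sampling error. The draw was not repeated, so the part of this error in the gap was not tested. The macrophage markers differed among themselves: of 11 with at least 50 UMIs, 6 had intervals below 1, 3 above 1 and 2 that held 1, with a median ratio of 0.757 (0.136 to 2.88).

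After thinning, a *C1qa* UMI was found in 24.9% of control and 13.1% of LPS macrophages, a difference of -11.8 percentage points (-18.4 to -5.16). The shares were 27.8% and 21.7% for *C1qb* (difference -6.03, -13.3 to 1.29) and 28.5% and 21.4% for *C1qc* (difference -7.09, -14.4 to 0.25). Without thinning they were 43.1% and 24.4% for *C1qa*, 47.7% and 33.0% for *C1qb*, and 48.8% and 33.3% for *C1qc*. In the fibroblasts of cluster 0, which should lack C1q, the thinned shares were 0.227% and 0.0997% for *C1qa*, 0.318% and 0.114% for *C1qb*, and 0.227% and 0.0712% for *C1qc*. The median depth was 8846 (control) and 6900 (LPS) UMIs per macrophage and 12968 and 9822 per fibroblast.

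The C1q UMIs were unevenly spread over the macrophages. In the control library, 24 macrophages (8.54%) with at least 20 C1q UMIs each held 45.9% of the C1q UMIs of the cluster, while 101 (35.9%) held none. In the LPS library, 14 macrophages (4.81%) held 46.6%, and 157 (54.0%) held none. The richest 10% of the macrophages held 59.2% of the *C1qa*, 55.3% of the *C1qb* and 55.7% of the *C1qc* UMIs in control, and 77.4%, 70.1% and 69.5% in LPS. For 11 macrophage markers the same share had a median of 31.6% (20.4 to 70.9) in control and 39.8% (20.1 to 61.3) in LPS cells. All 3 chains lay above both medians and, in the LPS library, above the highest marker. The genes differed in their totals. The chains had 463 to 524 UMIs in control and 257 to 358 in LPS, and the markers 187 to 10956 and 80 to 5795. The part of these totals and of depth in the shares was not tested.

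**Figure D2:**
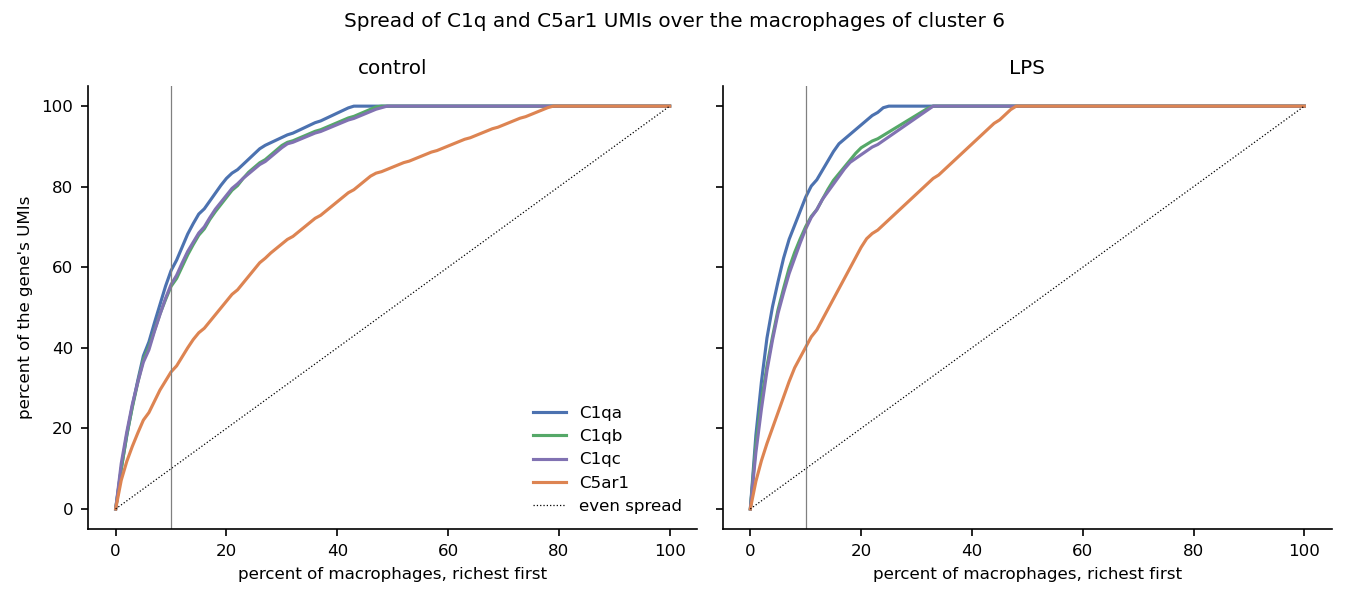
Percent of the UMIs of *C1qa*, *C1qb*, *C1qc* and *C5ar1* (vertical axis) held by the given percent of the macrophages of cluster 6, ranked from the richest (horizontal axis), in the control library (left) and the LPS library (right). The dotted line marks an even spread and the grey line the richest 10%, where the C1q curves reach 55.3 to 59.2% (control) and 69.5 to 77.4% (LPS) and *C5ar1* reaches 34.0% and 40.2%.

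The chains occurred in the same cells only in part at this depth. After thinning, 44.5% of control and 33.4% of LPS macrophages had a UMI of at least 1 chain, and 11.4% and 7.59% had all 3. Without thinning, at least 1 chain was seen in 64.1% and 46.0%. Macrophages with a C1q UMI differed from those without one in other genes too. *Mrc1*, the mannose receptor, was 2.88-fold (2.07 to 4.11) higher in them in control and 2.17-fold (1.52 to 3.13) in LPS cells, and *Cfd* (factor D, the protease that cleaves factor B) 2.41-fold (1.54 to 3.92) and 2.23-fold (1.26 to 4.08). The markers *Cd68*, *Cd14*, *Csf1r*, *Tyrobp* and *Fcer1g* were also higher in them by their intervals in both libraries, with ratios of 1.12 to 1.68. *Lyz2* (lysozyme) was the only macrophage marker lower in them by its intervals, with ratios of 0.484 (0.441 to 0.531) and 0.670 (0.589 to 0.762). Its UMIs were held by few cells: the richest 29 control macrophages had 70.9% of them and the richest 30 LPS macrophages 58.6%. The intervals cover counting error and not this spread between cells. Whether *Lyz2* was lower in the typical macrophage with a C1q UMI was not tested. Cells with a C1q UMI were also deeper, with medians of 9364 against 7956 UMIs in control and 7501 against 6309 in LPS, and the part of depth in these differences was not tested. *Mrc1*, *Cfd*, *Lyz2* and the other markers named here were picked after their values were seen.

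Outside cluster 6, C1q was at the level of other macrophage RNA. Cluster 6 held 76.8% of all *C1qa*, 82.4% of all *C1qb* and 81.0% of all *C1qc* UMIs in control, and 84.8%, 86.7% and 87.7% in LPS. The level in cluster 0 was 0.669% (*C1qa*), 0.410% (*C1qb*) and 0.512% (*C1qc*) of that in cluster 6 in control, and 0.341%, 0.245% and 0.300% in LPS. The 11 macrophage markers with at least 50 UMIs lay at 0.409 to 2.29% and 0.204 to 1.01%, so that the C1q chains fell inside the range of genes that fibroblasts should lack. No cell of cluster 0 had more than 2 UMIs of any chain. The chains' proportions were also set side by side. In control, *C1qa* gave 37.6% (32.7 to 42.8) of the C1q UMIs outside cluster 6 and 30.9% (28.6 to 33.3) inside it, *C1qb* 29.3% (24.7 to 34.2) and 34.2% (31.8 to 36.6), and *C1qc* 33.1% (28.3 to 38.1) and 35.0% (32.5 to 37.4). In LPS, *C1qa* gave 31.7% (24.3 to 40.0) and 27.6% (24.8 to 30.6), *C1qb* 37.9% (30.0 to 46.4) and 38.5% (35.4 to 41.7), and *C1qc* 30.3% (23.0 to 38.5) and 33.9% (30.8 to 37.0). The intervals inside and outside overlapped for each chain. The gap was widest for *C1qa* in control, where they met only between 32.7% and 33.3%. Overlap does not show that the proportions were the same, and the differences were not tested.

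**Figure D3:**
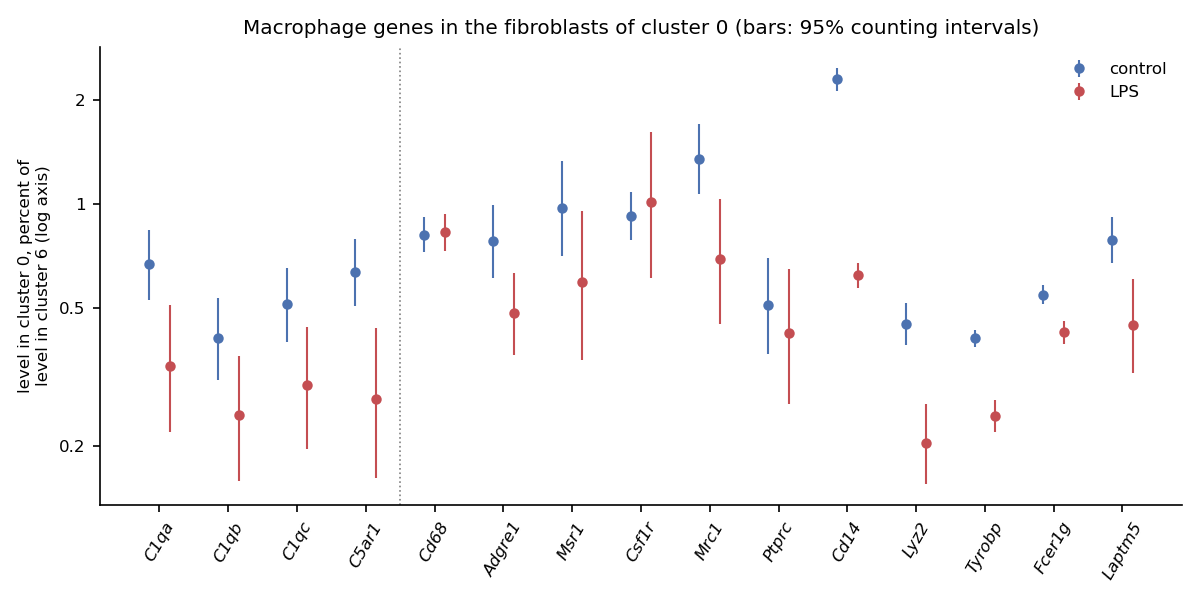
Level of the 3 C1q genes, *C5ar1* (left of the dotted line) and 11 macrophage markers (right) in the fibroblasts of cluster 0 as a percent of their level in the macrophages of cluster 6 (vertical log axis), with 95% counting intervals, for control and LPS. The 4 complement genes lie at 0.410 to 0.669% (control) and 0.245 to 0.341% (LPS), within the markers' ranges of 0.409 to 2.29% and 0.204 to 1.01%.

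The receptor of C5a followed the same pattern of cells. *C5ar1* (ENSRNOG00000047800) had 535 UMIs in control and 234 in LPS macrophages, 172 (158 to 187) and 94.1 (82.5 to 107) CPM. The ratio was 0.548 (0.468 to 0.640), or -0.56 on the log2 scale relative to the median gene of the cluster. After thinning, a UMI was seen in 44.1% of control and 28.6% of LPS macrophages, a difference of -15.5 percentage points (-23.4 to -7.39). Without thinning the shares were 79.0% and 47.8%, and in cluster 0 the thinned shares were 0.242% and 0.0569%. Its level in cluster 0 was 0.637% and 0.274% of that in cluster 6, again within the range of the markers. *C5ar1* was spread more evenly than C1q, with 34.0% and 40.2% of its UMIs in the richest 10% of the macrophages. It was 1.36-fold (1.13 to 1.66) higher in control macrophages with a C1q UMI than in those without, and 1.14-fold (0.872 to 1.48) in LPS.

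*C3ar1* (ENSRNOG00000009211), the receptor of C3a, was scarce. It had 11 UMIs in control and 9 in LPS macrophages, 3.53 (1.76 to 6.32) and 3.62 (1.66 to 6.87) CPM, and 20 and 10 UMIs over all cells. The ratio in macrophages was 1.03 (0.375 to 2.72), so a change of 2-fold in either direction could not be seen at this depth. In 7 of the 11 clusters both libraries held 0 UMIs.

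The proteases C1r and C1s are encoded by neighbouring genes on chromosome 4. *C1r* (ENSRNOG00000011796) had 30511 UMIs in the fibroblasts of cluster 0 in control and 28984 in LPS, 337 (333 to 341) and 393 (388 to 398) CPM, with a ratio of 1.17 (1.15 to 1.18). *C1s* (ENSRNOG00000011971) had 24425 and 25481 UMIs there, 269.9 and 345 CPM, with a ratio of 1.28 (1.26 to 1.30). After thinning, a *C1r* UMI was seen in 60.4% and 64.8% of the cells of cluster 0 and a *C1s* UMI in 52.7% and 60.5%. Without thinning these shares were 96.1% and 94.5% for *C1r* and 92.1% in each library for *C1s*. No cluster lacked either gene, so none could serve as a background.

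Both protease genes were highest in cluster 9, with 573 (506 to 648) and 697 (603 to 802) CPM of *C1r* and 433 (375 to 499) and 451 (375 to 536) CPM of *C1s*. For *C1s* in LPS this interval overlapped that of cluster 7, at 397 (366 to 430) CPM. Cluster 9 had 66 and 58 cells and also the highest summed level of 9 fibroblast markers, 17344 and 14561 CPM against 11692 and 10721 in cluster 0. Its cells were the shallowest, with medians of 5675 and 3957 UMIs. Their median mitochondrial share was 14.0% and 12.6%, against 3.37% and 2.94% in cluster 0. The summed cardiomyocyte markers stood at 2331 and 2278 CPM, against 226 and 189 in cluster 0, so the markers of this cluster were mixed. In control, *C1r* followed in the order 7, 0, 2, 1, 8, 10, 6, 5, 4 and 3, and only 4 of the 10 neighbours in this order were apart by their intervals: 9 above 7, 2 above 1, 1 above 8 and 5 above 4. *C1s* was lowest in the macrophages of cluster 6 in both libraries, at 92.1 and 101 CPM. In control its interval there (81.8 to 103) overlapped that of cluster 3, at 104 (96.3 to 111) CPM.

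In some clusters the low mean levels lay within the range of fibroblast markers. In cluster 6, *C1r* stood at 37.7% and *C1s* at 34.1% of their level in cluster 0 in control, where the 9 fibroblast markers stood at 28.0 to 42.6%. In LPS they stood at 27.7% and 29.3%, and the markers at 22.7 to 35.8%. These means were not shared evenly by the macrophages, whose median was 0 UMIs of each gene in both libraries. The richest 10% of them held 59.8% of the *C1r* and 55.1% of the *C1s* UMIs in control, and 63.5% and 57.9% in LPS. In cluster 0 the richest 10% held 26.6% and 28.4% in control, and 28.4% of each in LPS. The cardiomyocytes and ICA cells of cluster 3 gave values of 31.4% and 38.4% (control) and 30.1% and 39.5% (LPS), also within the markers' ranges of 18.6 to 47.5% and 18.3 to 62.2%. Values above all 9 markers in both libraries were seen in 4 clusters. The endothelial cells of cluster 5 had *C1s* at 75.9% and 72.4%, above markers of 21.3 to 33.2% and 17.0 to 43.8%, and those of cluster 4 had it at 44.7% and 38.8%, above 19.0 to 33.2% and 16.7 to 30.8%. Cluster 8 had *C1s* at 80.3% and 80.8%, above markers of 19.7 to 56.4% and 15.7 to 56.8%. Cluster 2, with the highest mural markers, had *C1r* at 95.7% and 96.1% and *C1s* at 85.0% and 87.1%, above markers of 24.1 to 76.9% and 19.0 to 77.7%. In cluster 1, *C1s* stood just below the lowest marker (60.5% against 61.5% in control, 65.6% against 65.8% in LPS). Whether fibroblast RNA in the fluid of the droplets or in the cells gave the remaining levels was not tested.

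**Figure D4:**
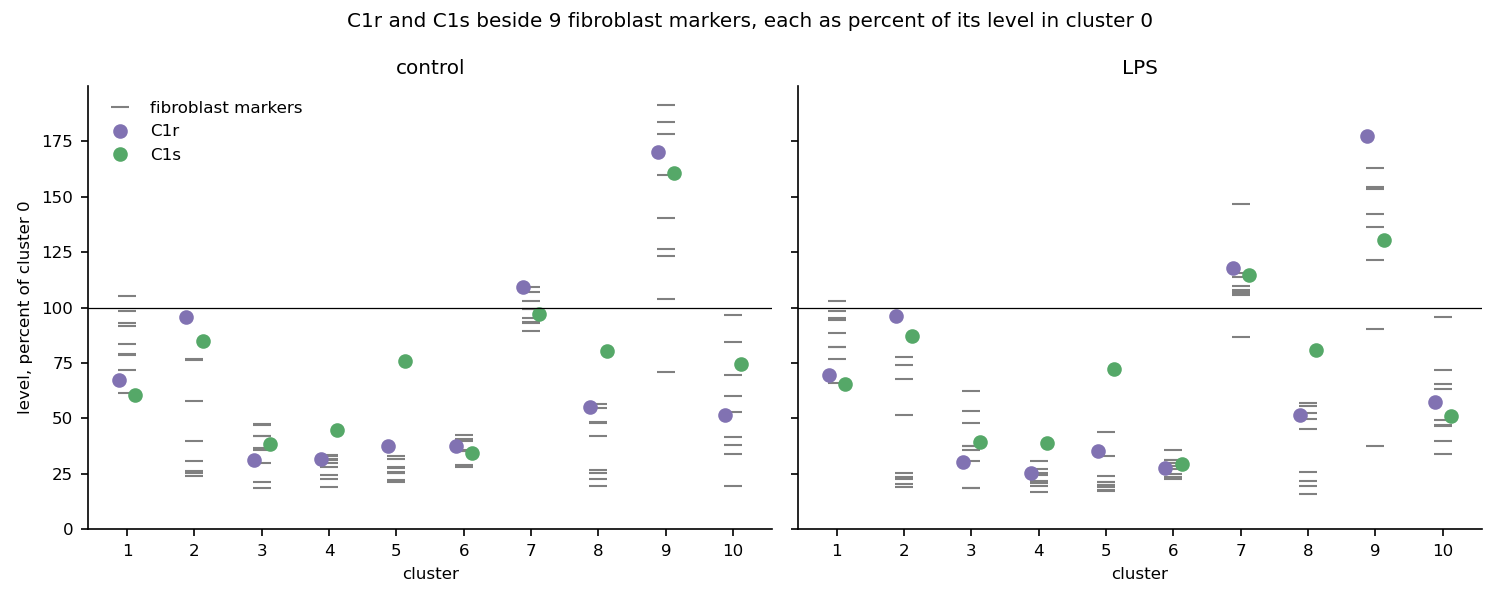
Levels of *C1r*, *C1s* and 9 fibroblast markers (dashes) in clusters 1 to 10, each as a percent of its own level in cluster 0 (vertical axis, linear from 0; line at 100), for control (left) and LPS (right). In clusters 3 and 6 both proteases lie among the markers, while *C1s* in cluster 5 (75.9% and 72.4%) and both genes in cluster 2 lie above all of them.

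The balance of the proteases also differed between clusters. *C1s* gave 44.5% (44.0 to 44.9) of the UMIs of both genes in cluster 0 of the control library and 46.8% (46.4 to 47.2) in LPS. In the endothelial cells of cluster 5 it gave 61.7% (59.1 to 64.3) and 64.4% (62.2 to 66.7), and in those of cluster 4 53.0% (51.0 to 54.9) and 57.3% (55.2 to 59.3). The share was higher in LPS in 9 of 11 clusters (not in 9 and 10), with intervals apart in clusters 0, 1, 2 and 4. These are shares of captured UMIs and not of proteins.

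Between libraries, *C1s* had a ratio with an interval above 1 in 8 clusters (0, 1, 2, 3, 4, 5, 7 and 8), from 1.11 (1.03 to 1.20) in cluster 4 to 1.52 (1.33 to 1.73) in cluster 7. *C1r* had such an interval in 6 clusters (0, 1, 2, 3, 7 and 9), from 1.12 (1.01 to 1.24) in cluster 3 to 1.25 (1.12 to 1.41) in cluster 7. In macrophages *C1r* had a ratio of 0.857 (0.732 to 1.00) and *C1s* of 1.10 (0.925 to 1.31), and in cluster 4 *C1r* had 0.933 (0.856 to 1.02). Neither gene reached 2-fold in any cluster. The median log2 ratio of all genes was -0.13 in cluster 0 and -0.12 in cluster 2. Relative to it the log2 ratios in cluster 0 were 0.35 for *C1r* and 0.49 for *C1s*.

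C3 is the protein at which all complement pathways meet. In the endothelial cells of cluster 5, *C3* (ENSRNOG00000046834) had 75 (control) and 190 (LPS) UMIs, 17.6 (13.9 to 22.1) and 41.7 (36.0 to 48.1) CPM, its highest level in both libraries. In cluster 8 it had 16 and 30 UMIs, 14.4 (8.23 to 23.4) and 28.6 (19.3 to 40.8) CPM, and in macrophages 24 and 41, 7.71 (4.94 to 11.5) and 16.5 (11.8 to 22.4) CPM. In cluster 0 it had 111 and 528 UMIs, 1.23 (1.01 to 1.48) and 7.16 (6.56 to 7.80) CPM. In the order of levels over the 11 clusters, no neighbours were apart by their intervals in either library. The other endothelial cluster, 4, had 1.71 (1.03 to 2.67) and 4.93 (3.64 to 6.54) CPM, far under cluster 5.

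*C3* in the LPS library stood at 5.84 times its control level (4.75 to 7.23) in cluster 0, 5.26 (3.44 to 8.31) in cluster 1, 2.89 (1.67 to 5.20) in cluster 4, 2.37 (1.80 to 3.13) in cluster 5 and 2.14 (1.26 to 3.70) in macrophages. In clusters with fewer than 50 UMIs it was 4.36 (1.93 to 11.1) in cluster 3, 2.79 (1.18 to 7.32) in cluster 2 and 1.99 (1.05 to 3.90) in cluster 8. In cluster 7 the control count was 2 UMIs and the LPS count 12, with a ratio of 5.76 (1.28 to 53.0), and in cluster 9 the counts were 2 and 6, with a ratio of 4.83 (0.863 to 48.9). Cluster 10 held 0 UMIs in both libraries, which allows up to 20.9 and 18.8 CPM (3 UMIs). The intervals of cluster 0 and cluster 5 did not overlap.

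Endothelial RNA was set beside *C3* in cluster 0, since cluster 5 held the highest level. *C3* in cluster 0 was 6.95% (5.14 to 9.44) of its level in cluster 5 in control, where 8 endothelial markers stood at 2.66 to 14.1%. In LPS it was 17.1% (14.5 to 20.3), above the 11.5% of the highest of 7 markers. A marker with too few UMIs in cluster 5 of that library was left out. The markers and *C3* were not on a like scale. In control, the summed markers had 17718 UMIs in cluster 4 and 5801 in cluster 5, against 19 and 75 of *C3*. In LPS these were 14415 and 5207, against 48 and 190. The source of *C3* in cluster 0 was not tested by this comparison. Without the cells that held a UMI of *Cdh5*, *Pecam1* or *Emcn*, endothelial genes, the log2 ratio in cluster 0 was 2.36 against 2.54 with them; this setting was chosen after seeing the data. The number of cells with *C3* moved with its level. After thinning, 0.470% of control and 1.87% of LPS cells of cluster 0 had a UMI (difference 1.40 points, 1.03 to 1.77), and 5.43% and 11.7% of the cells of cluster 5 (difference 6.27, 2.18 to 10.3). Without thinning the shares were 1.59% and 6.53% in cluster 0 and 18.6% and 26.6% in cluster 5. Cluster 8 reached shares like those of cluster 5 in LPS. After thinning, 2.86% and 13.6% of its cells had a UMI (2 and 11 cells, difference 10.7 points, 1.04 to 20.5). Without thinning, 15.7% and 25.9% had one (difference 10.2, -3.81 to 23.5). The lowest thinned share among the named clusters with over 500 cells was that of cluster 3, 0.239% and 0.756%, whose cells had median totals of 7526 (control) and 5269 (LPS) UMIs, while those of cluster 5 had 10172 and 8998. No cluster was known to lack *C3*.

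**Figure D5:**
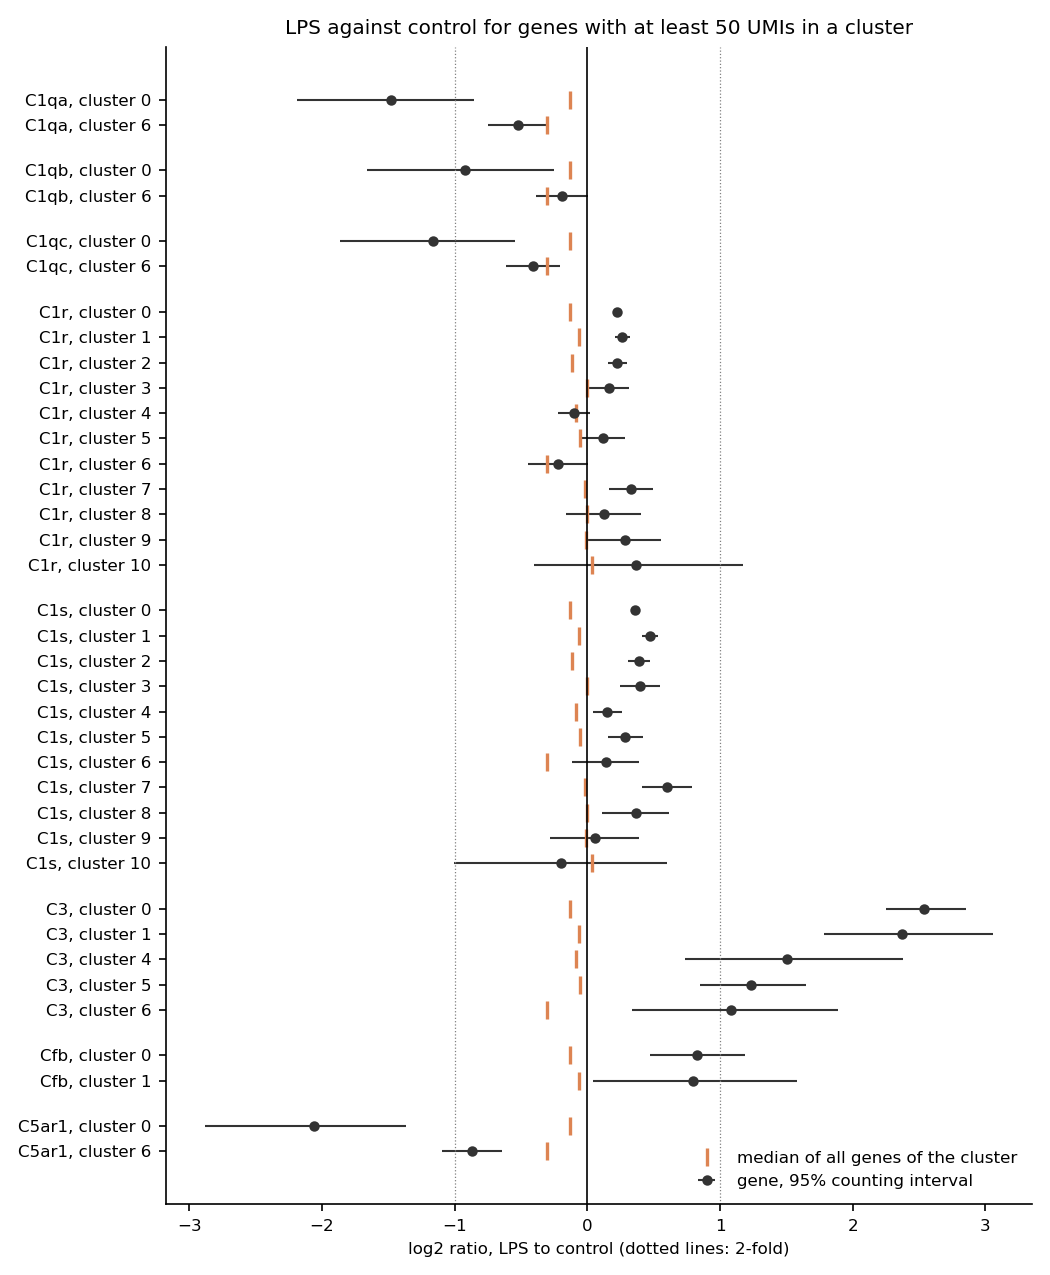
Log2 ratio of LPS to control (horizontal axis) for each gene and cluster with at least 50 UMIs over both libraries (vertical axis), with 95% counting intervals, beside the median of all genes of the cluster (orange bars) and lines at 2-fold (dotted). *C3* lies above 1 in clusters 0, 1, 4, 5 and 6, *C1r* and *C1s* lie between -0.22 and 0.60, and *C1qa*, *C1qc* and *C5ar1* lie left of -1 in cluster 0 but not in cluster 6.

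Factor B binds C3b and carries the protease of the alternative pathway. *Cfb* (ENSRNOG00000000419; a second entry of the same symbol was listed at 0) had 232 UMIs in control and 274 in LPS over all cells, and its neighbour on chromosome 20 is *C2*, the classical pathway protease of like build. Its level was highest in cluster 8, with 22 UMIs in control and 10 in LPS, 19.8 (12.4 to 30.0) and 9.52 (4.57 to 17.5) CPM. Cluster 8 was apart from the next cluster by its interval in control only. The ratio there was 0.481 (0.203 to 1.06). After thinning, 11.4% of control and 1.23% of LPS cells of cluster 8 had a *Cfb* UMI (8 and 1 cells; difference -10.2 points, -20.1 to -1.81), and without thinning 25.7% and 11.1%. At a thinning depth of 1500 UMIs, 2.86% and 3.70% of these cells had one (2 and 3 cells; difference 0.847 points, -6.82 to 8.04), so the direction of the difference turned with the depth of thinning. In cluster 0, where the level was low, 0.364% and 0.712% had one after thinning and 1.70% and 2.29% without, with median totals of 12968 and 9822 UMIs, while cluster 8 had 14882 and 11801.

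In fibroblasts the ratio lay above 1. *Cfb* had 114 control and 165 LPS UMIs in cluster 0, 1.26 (1.04 to 1.51) and 2.24 (1.91 to 2.61) CPM, with a ratio of 1.78 (1.39 to 2.27). In cluster 1 it had 26 and 38 UMIs and a ratio of 1.74 (1.03 to 2.99). In the other 9 clusters the interval of the ratio held 1. The mesothelial markers were at 594 and 642 CPM in cluster 8 and at 26.5 and 19.1 in cluster 0.

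Counts of the 9 genes past 2-fold are set here beside the share of all genes. In cluster 0, 8 of the 9 genes had at least 50 UMIs over both libraries, and 1 of them (*C3*) was at least 2-fold higher in LPS, where 3.43% of the 12247 such genes were. Another 3 (*C1qa*, *C1qc* and *C5ar1*) were at least 2-fold lower, where 9.01% of all genes were. Their level in cluster 0 was within the range of the macrophage markers. So was that of *C1qb*, which did not pass 2-fold there (ratio 0.523, 0.317 to 0.840). In cluster 6, 7 genes had 50 UMIs, 1 (*C3*) was higher (4.81% of all genes) and 0 were lower (12.1% of all genes). *C3* was also the only one past 2-fold in cluster 1 (1 of 4 genes; 3.22% of all genes higher, 4.99% lower), cluster 4 (1 of 3; 2.63% and 4.02%) and cluster 5 (1 of 3; 4.19% and 4.41%). In clusters 2, 3, 7, 8, 9 and 10 only *C1r* and *C1s* had 50 UMIs, and 0 of 2 passed in either direction. The share of all genes past 2-fold there was 2.83% higher and 4.17% lower in cluster 2, 1.68% and 1.67% in cluster 3, 4.56% and 3.37% in cluster 7, 2.35% and 1.52% in cluster 8, 2.69% and 2.57% in cluster 9, and 3.52% and 0.971% in cluster 10. *C3ar1* had 50 UMIs in no cluster.

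A further 38 complement genes of the gene list were counted for context. In cluster 0, 15 of them had at least 50 UMIs, 0 were at least 2-fold higher and 4 lower: *Cfd* with a ratio of 0.208 (0.152 to 0.279), *C7* with 0.293 (0.194 to 0.432), *Susd4*, an inhibitor of complement, with 0.360 (0.251 to 0.507), and *C6* with 0.464 (0.338 to 0.630). *C6* and *C7* encode parts of the membrane attack complex, which forms after C5 is cleaved. *Cfd* was at 3.46 and 0.719 CPM in cluster 0 and at 42.7 and 23.7 CPM in macrophages. The median log2 ratio of the 15 genes was -0.30, against -0.13 for all genes of the cluster and -0.35 for the 8 members. No member lay near -0.35. The C1q genes and *C5ar1* lay at -2.06 to -0.92, and *C1r*, *C1s*, *Cfb* and *C3* at 0.22 to 2.54. In cluster 6, 9 had at least 50 UMIs, 0 were higher and 2 lower: *Cd59* (a membrane inhibitor of the attack complex) with 0.475 (0.287 to 0.762) and *Colec12* (a scavenger receptor) with 0.490 (0.336 to 0.703). The median log2 ratio there was 0.04 for these 9 genes, -0.22 for the 7 members and -0.30 for all genes. The 0.04 is the value of *Itgax*, and the next lower value was -0.55 (*Fcna*), so this median rests on 1 gene.

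*Serping1* encodes C1 inhibitor, which blocks C1r and C1s, and was named after its values were seen. Its ratio was 1.34 (1.30 to 1.38) in cluster 0, from 88.9 to 119 CPM, and 1.24 (1.15 to 1.34) in cluster 5, where it was highest at 294 and 365 CPM.

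Leaving out *C3ar1*, which had fewer than 100 UMIs in all cells, the genes fell into groups by their levels. Levels over 20 combinations of cluster and library with at least 50 cells each were compared by Pearson's r of log2(CPM + 1) across 12348 genes. The points share 2 libraries, 10 clusters and unequal depth, so the values are a description. The C1q genes had r of 0.945 to 0.972 with each other and 0.955 to 0.985 with *C5ar1*. These 4 genes stood at 94.1 to 172 CPM in the 2 points of cluster 6 and at 3.43 CPM or less in the others. Their r values rest largely on this contrast and add little to it. *C1r* and *C1s* had r of 0.887 with each other and -0.638 to -0.355 with the C1q genes and *C5ar1*. *C3* and *Cfb* had r of 0.551. The gene most like *C1qa* was *Ms4a6a* (0.987), most like *C1qb* was *Ccr1* (0.990), most like *C1qc* was *Fcna* (0.992) and most like *C5ar1* was *Trem1* (0.987). *Aebp1* was most like *C1r* (0.944), *Timp1* most like *C1s* (0.889), *Itprid2* most like *C3* (0.878), followed by *Slpi* and *Lcn2*, and *Aqp3* most like *Cfb* (0.832), followed by the mesothelial gene *Msln* (0.819).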

How the data were processed

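Per the labels, cardiac cells of neonatal rats were treated with saline or LPS and sequenced with the Chromium Single Cell 3′ v2 kit. The submitters' processing notes name Cell Ranger 2.2.0 and Seurat 2.3.4; the genome build is not given in the sources used here. The deposited values are raw UMI counts per gene and cell, with no normalization, and a table gives each cell's cluster and name, which the authors made in Seurat after aligning both libraries. The 2 control and 8 LPS cells with no cluster were left out, and no further filter was applied to cells.

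Counts were summed per cluster and library in Python 3.11.15 (numpy 2.4.6, scipy 1.17.1, pandas 2.3.3) and divided by the total of the cluster. Each condition has 1 library of pooled animals, so no test was made. Intervals (95%) are exact Poisson for levels, exact conditional for ratios, Clopper-Pearson for shares and Newcombe for differences of shares, and cover counting error only. Log2 ratios have 0.5 UMI added to each sum. Genes were counted as past 2-fold only where both libraries together held 50 or more UMIs in the cluster. For shares, cells were thinned at random (seed 1) to 3000 UMIs, which left out cells with fewer. A count of 0 allows 3 UMIs.

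The 9 genes, the 38 other complement genes and the marker lists were chosen with earlier results of these data known. One further gene of the complement list is not reported here, and counts over the list are without it. The text gives all 9 genes, the other complement genes past 2-fold in clusters 0 and 6, and the genes most alike in pattern; genes named on their values are marked so. Scrublet (scanpy 1.11.5) called 10 control and 3 LPS cells doublets (0.0867% and 0.0236%), too few for the caller to have worked, so doublets were kept and the 8% of cells with the highest scores left out as an alternative. The other alternatives were the mean of the cells' own CPM, thinned cells, totals without mitochondrial genes, ratios relative to the median gene, cells with at least 500 genes and at most 20% mitochondrial UMIs, clusters without cells holding a UMI of *Cd68*, *Adgre1*, *Msr1* or *Ptprc*, all cells, other minimums and folds, and other depths of thinning. Promoters were taken from RefSeq.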

Additional observations from a re-analysis of the deposited data

Results flagged for a closer look

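*Clu* encodes clusterin, which inhibits the membrane attack complex. Its log2 ratio of LPS to control was 0.56 in cluster 9 (from 342 to 504 CPM) and -0.48 in cluster 8 (from 387 to 277 CPM), with counting intervals on opposite sides of 0. The ratio was also above 1 in fibroblasts (1.34, 1.30 to 1.39, in cluster 0) and macrophages (1.33, 1.11 to 1.59) and below 1 in the endothelial cells of cluster 5 (0.886, 0.840 to 0.935). With 1 library per condition the difference between clusters was not tested.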

How the results depend on the processing

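No paired analysis was possible because a single library stands for each condition. Of 334 values under the alternatives, 276 stayed within the counting interval of the reported value (for counts, within 1.5 times), 58 did not, and 0 turned the direction of a ratio whose interval left out 1; *C1qb* in macrophages, whose interval held 1, turned relative to the median gene. The cause of these moves was not tested. Thinned to 3000 UMIs in a single random draw, the log2 ratio in macrophages was -1.11 for *C1qa*, -0.51 for *C1qb* and -0.70 for *C1qc*. In cluster 0 it was 0.18 for *C1r*, 0.30 for *C1s* and 1.97 for *C3*. Relative to the median gene it was -0.22, 0.11 and -0.10 for the C1q genes and -0.56 for *C5ar1* in macrophages, and 0.35 for *C1r* and 0.49 for *C1s* in cluster 0. By the mean of the cells' own CPM *C1r* gave 0.19 in cluster 0. Over all cells *C3* gave 2.06, against 2.54 in cluster 0 and 1.24 in cluster 5. Without thinning, the shares of macrophages with a UMI differed by -18.7 points for *C1qa*, -14.7 for *C1qb*, -15.4 for *C1qc* and -31.2 for *C5ar1*. Of all genes, 420 were past 2-fold higher and 1103 lower in cluster 0; 842 and 2407 passed 1.5-fold, 211 and 371 passed 3-fold, and 591 were lower with a minimum of 200 UMIs. In cluster 6, 307 were higher and 771 lower; 561 and 1935 passed 1.5-fold, 167 and 212 passed 3-fold, 165 and 185 did so at 2-fold with a minimum of 200 UMIs, and 1319 were lower with 20. Of the 9 genes, 2 were higher in cluster 0 at 1.5-fold (*C3* and *Cfb*), 1 was lower there at 3-fold and 0 at 200 UMIs, and in cluster 6 1 was lower at 1.5-fold while 0 were higher at 3-fold or 200 UMIs. The low counts of *C3ar1* everywhere, and of *Cfb* outside clusters 0 and 1, limit what their ratios can show.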

Other observations

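Endothelial cells of cluster 5 held 0 UMIs of *C4bpb*, a chain of C4b-binding protein, in control, which allows up to 0.706 CPM (3 UMIs), and 14 in LPS, 3.08 CPM. *Cd55*, a membrane inhibitor of C3 activation, was at 14.4 and 25.3 CPM there, with a ratio of 1.76 (1.28 to 2.44). In cluster 0, *C4b* had 25 UMIs in control but 1 in LPS. In the endothelial cells of cluster 4, *Itgax*, a chain of a receptor for cleaved C3, had 57 and 24 UMIs, with a ratio of 0.481 (0.286 to 0.788), and *Susd4* had a ratio of 0.488 (0.265 to 0.862) in cluster 1. These genes were picked after their values were seen, and none of the differences was tested.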
